A study of Mus musculus with 6 samples.

Results

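The melanocyte lineage genes followed here are Mitf and Sox10, regulators of pigment cells; Pmel and Mlana, melanosome proteins; Tyr, Tyrp1 and Dct, enzymes of melanin synthesis; and S100b, a calcium-binding protein used as a melanoma marker. They were taken by symbol, and each of the 8 symbols is held by exactly 1 of the 32227 genes in the count files. Melanocytes make pigment in melanosomes, organelles related to lysosomes, and melanoma lines such as B16 keep much of this program. In an enriched T cell sample the same transcripts mark carried-over tumor cells, and RNA released from broken cells can also be captured together with other cells. T cells are not known to make pigment, while Mitf and related factors are also used by macrophages and osteoclasts.

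The study compared CD8 T cells of mice with and without PD-1 by droplet-based single-cell RNA sequencing in 6 libraries, 1 per genotype and tissue. Libraries labelled Pdcd1fl/fl come from C57BL/6-background mice with a floxed Pdcd1 gene, the controls of the study. Those labelled Pdcd1 cKO come from Pdcd1fl/fl mice that also carry E8I CD8-Cre, which acts in CD8 T cells, so the grafted tumor line and macrophages hold no such deletion by design. Thymus and spleen carry no treatment label, their T cells were prepared with a CD8a T cell kit, and each of these libraries holds 1 mouse. Tumors were B16-OVA, a melanoma line carrying ovalbumin, collected on day 12 after injection and pooled from several mice per library. They were digested, cleared of dead cells and enriched with CD8 microbeads, and the mice were adults over 8 weeks old. With 1 library per genotype and tissue, a difference between labels cannot be told apart from a difference between libraries, so no test was made. In what follows, a pair of values gives the library labelled Pdcd1fl/fl and then the library labelled Pdcd1 cKO.

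A UMI is the tag that counts a captured RNA molecule. Cells were kept from 1000 UMIs and 500 genes upward if mitochondrial genes gave no more than 20% of their UMIs. The tumor libraries held 456 of 457 and 561 of 561 barcodes, with 9380835 and 7924590 UMIs and a median of 13809.5 and 9510 UMIs per cell. The thymus kept 1067 of 1067 and 2635 of 2674 barcodes at medians of 4361 and 5417 UMIs. The spleen kept 1478 of 6929 and 4928 of 4963 barcodes at medians of 1320.5 and 1615, with 2220981 of 5935926 and 8923997 of 8964626 UMIs, so the spleen labelled Pdcd1fl/fl rests on the smaller part of its barcodes. No barcode of a tumor library occurred in another library.

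Levels are in CPM, the UMIs of a gene per 1000000 UMIs of all genes in the cells of a class, and brackets hold 95% intervals that cover counting error only. Pdcd1 itself, the gene deleted in the study, stood at 183 CPM (169.8 to 197) in the tumor T cells of the library labelled Pdcd1fl/fl. In those of the library labelled Pdcd1 cKO it stood at 152 CPM (142 to 163), a log2 ratio of -0.27 (-0.41 to -0.12). Melanoma-like cells, named below, held 1.51 and 1.75 CPM and macrophage-like cells 26.8 and 7.96 CPM. The thymus held 1.88 and 6.84 CPM and the spleen 0.450 and 11.7 CPM, so Pdcd1 RNA was higher in the library labelled Pdcd1 cKO in these tissues. The RNA levels of thymus and spleen go against the genotype labels, while the pooled tumor T cell level is lower under the label of the deletion. That pool mixes T-like clusters, named below, which the tumor libraries fill differently. With the libraries merged, cluster 0, with 243 of 254 cells labelled Pdcd1 cKO, held 187 CPM. Clusters 1, 3, 4 and 7 held 185, 137, 100 and 109 CPM. Cluster 6, with all 26 cells labelled Pdcd1fl/fl, held 14.1 CPM. Whether the lower pooled level holds within clusters was not tested. Which exons the UMIs come from is not known from the counts, and PD-1 protein was not analysed here. By flow cytometry, the study reports loss of PD-1 in thymic and tumor CD8 T cells of Pdcd1 cKO mice. It also reports reduced binding of a PD-1 antibody to their splenic CD8 T cells, so these measures run the way the labels say. Whether each label matches the genotype of its library was not tested here, which bears on every comparison between labels.

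The merged tumor cells were clustered without the 8 genes and named by lists of marker genes that exclude them. Of 8 clusters, 1 was melanoma-like, with 13 of 15 melanoma markers, and 1 macrophage-like, with 12 of 12 macrophage or monocyte markers. The remaining 6 were T-like, each with 11 of 11 T cell markers. T-like clusters were scored against the melanoma-like and macrophage-like cells together, while those classes were scored against all other cells. A T cell marker can thus pass without standing above its macrophage-like level. The melanoma-like cluster was led by Fitm1, Fxyd3, D130058E05Rik, Gm4836 and Gm14632, and the macrophage-like cluster by C3ar1, Fabp4, Lyz1, Clec4n and Mgl2. The summed melanoma markers stood at 5044 and 5726 CPM in melanoma-like cells, with all 15 genes seen, against 94.9 and 102 CPM in T-like and 203 and 138 CPM in macrophage-like cells. Ptgds, a prostaglandin synthase, was the most abundant of them at 2037 and 2611 CPM. The T cell markers summed to 5572 and 7107 CPM in T-like cells, led by Trbc2, and the macrophage markers to 12279 and 12454 CPM in macrophage-like cells, led by Lyz2, with no gene of either list at 0 there. Ptprc, which codes for the leukocyte protein CD45, stood at 7.95 and 8.75 CPM in melanoma-like cells, against 127 and 129.6 CPM in T-like cells. Cd8a, the T cell coreceptor named in the labels, stood at 313 and 324 CPM in T-like cells and at 5.30 and 9.62 CPM in melanoma-like cells. By cluster, Cd8a ran from 108 to 381 CPM in 5 of the 6 T-like clusters, and Cd4, the other T cell coreceptor, from 0.685 to 4.69 CPM. Cluster 7, with 15 cells, went against the label of CD8 T cells, with Cd4 at 86.2 CPM and Cd8a at 17.2 CPM, below the 31.3 CPM of Cd8a in the macrophage-like cluster. T-like cells lay in different clusters in the 2 libraries: clusters 0 and 3 held 243 and 115 cells of the library labelled Pdcd1 cKO and 11 and 17 of the other, clusters 1 and 4 held 155 and 71 cells of the library labelled Pdcd1fl/fl and 68 and 35 of the other, and all 26 cells of cluster 6 came from the library labelled Pdcd1fl/fl.

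Melanoma-like cells made up 142 of 456 cells, or 31.1% (26.9 to 35.6), in the library labelled Pdcd1fl/fl and 58 of 561, or 10.3% (7.94 to 13.2), in the library labelled Pdcd1 cKO. Bead enrichment precedes these counts and the libraries differ in depth, so the shares describe the libraries and not the tumors. T-like cells numbered 287 and 469, and macrophage-like cells 27 and 34. Median depth was 31889 and 35962.5 UMIs in melanoma-like cells, 11027 and 9107 in T-like cells, and 8831 and 7047.5 in macrophage-like cells. With this depth, melanoma-like cells gave 56.3% and 28.8% of all tumor UMIs. They gave 98.7% and 97.4% of the UMIs of the 8 genes, T-like cells 1.18% and 2.32%, and macrophage-like cells 0.117% and 0.305%. The melanocyte genes are therefore read almost wholly from the melanoma-like cells, while the T-like and macrophage-like cells carry a small remainder. No doublet caller was run; by their own marker UMIs, 1 and 2 melanoma-like, 1 and 4 T-like, and 3 and 5 macrophage-like cells were mixed, and they were kept.

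The 8 genes together stood at 16158 CPM (16049.6 to 16267) and 17329 CPM (17159 to 17501) in melanoma-like cells. Macrophage-like cells came next with 387 CPM (315 to 470.2) and 329 CPM (274 to 392), followed by T-like cells with 267 CPM (251 to 284) and 179.6 CPM (168 to 191). The spleen held 7.65 CPM (4.46 to 12.3) and 7.17 CPM (5.52 to 9.16), and the thymus 5.95 CPM (4.21 to 8.16) and 6.27 CPM (5.20 to 7.50). In this order the intervals of the macrophage-like classes overlap each other, and that of the macrophage-like cells labelled Pdcd1 cKO also overlaps the T-like cells labelled Pdcd1fl/fl. With mitochondrial, ribosomal and Malat1 UMIs left out of the total, macrophage-like and T-like cells stood at 505 and 469 CPM in the library labelled Pdcd1fl/fl, nearly equal, and at 402 and 289 CPM in the other. The intervals of the thymus and spleen libraries overlap one another, and no tumor class reaches down to them. T-like tumor cells held 44.9-fold (32.5 to 63.8) and 28.7-fold (23.7 to 34.9) the thymic level of their label. Against the spleen the ratios were 34.9-fold (21.7 to 60.1) and 25.04-fold (19.4 to 32.8).

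**Figure D1:**
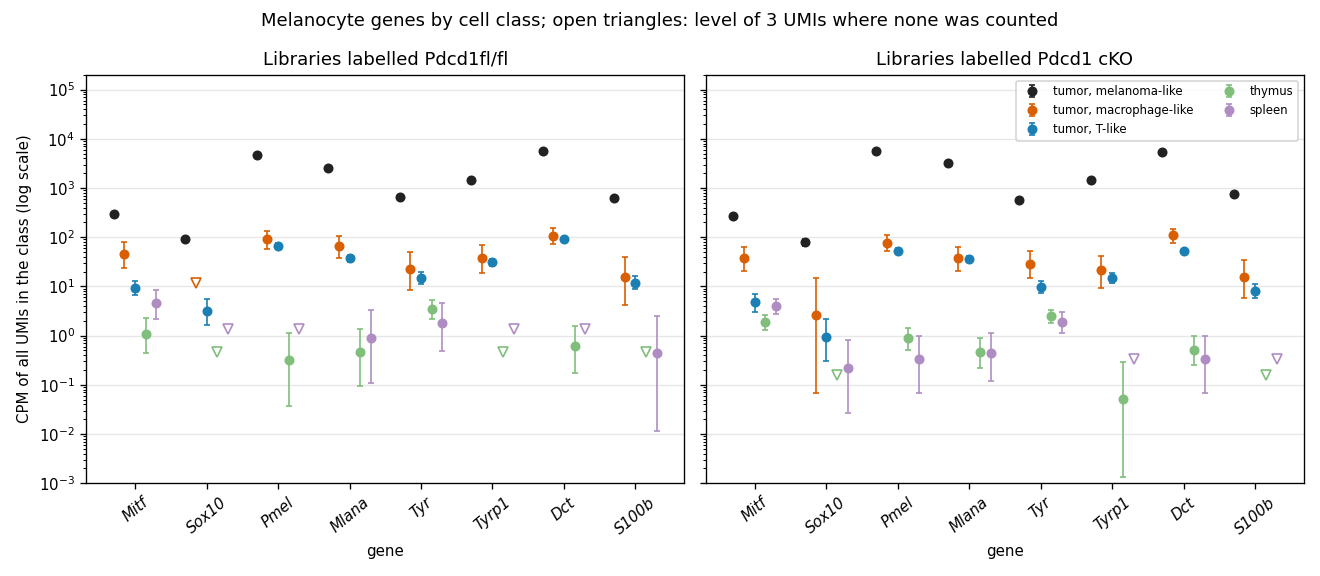
CPM of each melanocyte gene in the classes of the tumor libraries and in the thymus and spleen libraries, on a log axis, with 95% intervals for counting error. Open triangles mark the level that 3 UMIs would give where no UMI was counted.

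Mitf, the transcription factor that directs pigment cell development, stood at 296 CPM (281 to 311) and 267 CPM (247 to 289) in melanoma-like cells. Macrophage-like cells held 46.0 CPM (23.8 to 80.3) and 37.1 CPM (20.3 to 62.3), and T-like cells 9.39 CPM (6.58 to 13.0) and 4.75 CPM (3.07 to 7.01). The spleen held 4.503 CPM (2.16 to 8.28) and 3.92 CPM (2.73 to 5.45), and the thymus 1.10 CPM (0.440 to 2.26) and 1.88 CPM (1.32 to 2.60). The macrophage-like level of Mitf thus lay between those of melanoma-like and T-like cells with no overlap, and its T-like level overlapped the spleen in each label. T-like cells held 2.09-fold (1.01 to 4.71) and 1.21-fold (0.695 to 2.08) the Mitf level of the spleen, and the interval of the latter holds 1. Sox10, a neural crest factor upstream of Mitf, stood at 94.0 CPM (85.9 to 103) and 78.3 CPM (67.3 to 90.7) in melanoma-like cells. T-like cells held 3.13 CPM (1.62 to 5.47) and 0.9502 CPM (0.309 to 2.22), from 12 and 5 UMIs. Macrophage-like cells held 0 and 1 UMI, where 3 UMIs would be 11.5 and 7.96 CPM. Neither thymus library had a Sox10 UMI, with 3 UMIs equal to 0.469 and 0.157 CPM, and the spleen had 0 and 2. Sox10 thus had few UMIs outside the melanoma-like cells, too few to show that it is near absent from macrophage-like cells. Its T-like and macrophage-like intervals overlap with these few counts.

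Pmel, which forms the fibrils on which melanin is laid down, stood at 4694 CPM (4635 to 4752) and 5629.7 CPM (5533 to 5728) in melanoma-like cells. Each melanoma-like cell held it, with medians of 158 and 175 UMIs per cell and highest counts of 601 and 1569. Macrophage-like cells held 91.9 CPM (58.9 to 137) and 76.9 CPM (51.5 to 110.5), and T-like cells 66.5 CPM (58.6 to 75.2) and 53.6 CPM (47.5 to 60.2). The intervals of macrophage-like and T-like cells overlap in each library, and the melanoma-like level is far above them. The thymus had 2 and 17 Pmel UMIs, or 0.313 and 0.888 CPM, and the spleen 0 and 3. Mlana, a melanosome membrane protein known as a T cell antigen of melanoma, stood at 2559 CPM (2516 to 2603) and 3171 CPM (3098 to 3244) in melanoma-like cells. It held 65.1 CPM (37.9 to 104) and 37.1 CPM (20.3 to 62.3) in macrophage-like cells, and 37.3 CPM (31.4 to 43.9) and 35.7 CPM (30.8 to 41.2) in T-like cells. Again the macrophage-like and T-like intervals overlap in each library. Thymus and spleen gave 3 and 9, and 2 and 4 Mlana UMIs, all at or under 0.901 CPM.

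Tyr, the rate-limiting enzyme of melanin synthesis, stood at 642 CPM (621 to 664) and 564 CPM (534 to 596) in melanoma-like cells. Macrophage-like cells held 23.0 CPM (8.44 to 50.03) and 29.2 CPM (14.6 to 52.2), and T-like cells 14.9 CPM (11.3 to 19.3) and 9.69 CPM (7.22 to 12.7). The thymus held 22 and 47 Tyr UMIs, or 3.44 CPM (2.16 to 5.21) and 2.46 CPM (1.80 to 3.26), and the spleen 1.80 CPM (0.491 to 4.61) and 1.90 CPM (1.11 to 3.05). Tyr is the enzyme with the highest count in each thymus and spleen library, and its T-like level is 4.32-fold (2.60 to 7.42) and 3.95-fold (2.60 to 6.00) the thymic level. Tyrp1, which oxidises an intermediate of brown-black melanin, stood at 1463 CPM (1431 to 1496) and 1479 CPM (1429.7 to 1529.9) in melanoma-like cells. Macrophage-like cells held 38.3 CPM (18.4 to 70.5) and 21.2 CPM (9.16 to 41.8), and T-like cells 30.8 CPM (25.5 to 36.9) and 14.8 CPM (11.7 to 18.5). Of the thymus and spleen libraries only the thymus labelled Pdcd1 cKO had a Tyrp1 UMI, and it had 1. Taking 3 counts as the floor in the thymus labelled Pdcd1fl/fl, the T-like level was 65.6-fold that floor. The lower limit of this ratio from counting error is 52.5-fold. Against the spleen of that label these values are 22.8-fold and 18.2-fold. Dct, which converts dopachrome, stood at 5777 CPM (5713 to 5842) and 5401 CPM (5306 to 5497) in melanoma-like cells, with medians of 172 and 151 UMIs per cell. Macrophage-like cells held 107 CPM (71.3 to 155) and 109 CPM (78.0 to 148), and T-like cells 92.8 CPM (83.5 to 103) and 51.9 CPM (45.9 to 58.4). The macrophage-like and T-like intervals overlap in the library labelled Pdcd1fl/fl and are apart in the library labelled Pdcd1 cKO, as they are for Tyr. Thymus and spleen gave 4 and 10, and 0 and 3 Dct UMIs.

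S100b, a calcium-binding protein shared by melanocytes and Schwann cells, stood at 632 CPM (611 to 654) and 739 CPM (704 to 775) in melanoma-like cells. Macrophage-like cells held 15.3 CPM (4.18 to 39.2) and 15.9 CPM (5.84 to 34.6), and T-like cells 12.0 CPM (8.78 to 16.003) and 8.17 CPM (5.91 to 11.01). Thymus and spleen gave 1 S100b UMI in all, in the spleen labelled Pdcd1fl/fl. Schwann cell markers stood at 123 and 116 CPM in melanoma-like cells, with 5 and 4 of 5 genes seen and Mbp the most abundant at 105 and 108 CPM, and their part in the S100b level was not tested.

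Set against the melanoma-like cells of the same library, the 8 genes in T-like cells stood at 1.65% (1.55 to 1.76) and 1.04% (0.971 to 1.11) of the tumor cell level. Gene by gene the share ran from 1.42% (Pmel) to 3.33% (Sox10) in the library labelled Pdcd1fl/fl, and from 0.952% (Pmel) to 1.78% (Mitf) in the library labelled Pdcd1 cKO. Each of the 8 genes is thus found in T-like cells at a few percent or less of its tumor cell level. The library with the larger part of its UMIs in melanoma-like cells, 56.3% against 28.8%, also had the larger share in T-like cells; whether these are linked was not tested. Of the 15 melanoma naming markers, those with at least 100 UMIs in melanoma-like cells gave a median of 1.61% over 13 genes and 1.88% over 10 genes in T-like cells, against 2.00% and 1.12% for the 8 genes. These markers ranged from 0.783% (Mlph) to 7.07% (Cdh19) and from 1.06% (Slc24a5) to 16.9% (Oca2). Gpm6b, under that minimum and picked after its values were seen, had more UMIs in T-like than in melanoma-like cells, 17 against 7 and 16 against 1. Other classes read each other's markers too: T cell markers stood at 2.92% and 4.14% of their T-like level in melanoma-like cells, and macrophage markers at 0.246% and 0.462% of their own level in T-like cells. In macrophage-like cells T cell markers reached 14.2% and 15.4% of their T-like level, and 2 and 2 cells of that cluster were T-like by their own markers. In each library 1 macrophage-like cell held a large part of these UMIs, 115 of 206 and 95 of 412.

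In macrophage-like cells the 8 genes stood at 2.39% (1.95 to 2.91) and 1.90% (1.58 to 2.26) of the melanoma-like level. Mitf had the highest share of the 8 in each library, at 15.5% (8.01 to 27.2) and 13.9% (7.55 to 23.5). Of the other 7 genes, Sox10 had no macrophage-like UMI in the library labelled Pdcd1fl/fl, and the remaining 6 ran from 1.86% (Dct) to 3.58% (Tyr). In the library labelled Pdcd1 cKO the 7 ran from 1.17% (Mlana) to 5.17% (Tyr, 2.57 to 9.28), whose interval overlaps that of Mitf. The intervals of Sox10, with 0 and 1 UMI, overlap that of Mitf in each library. Against T-like cells, Mitf was 4.90-fold (2.32 to 9.63) and 7.82-fold (3.76 to 15.6) higher in macrophage-like cells, from 12 and 14 UMIs. The 8 genes together were 1.45-fold (1.17 to 1.78) and 1.83-fold (1.51 to 2.21) higher. At least 2-fold higher were 1 of 7 measured genes (Mitf), where 35.2% of 8187 genes were, and 4 of 7 in the library labelled Pdcd1 cKO, where 29.9% of 9616 genes were. The 4 include S100b, with 6 macrophage-like UMIs, which passes only with the 0.5 counts added and is 1.95-fold higher without them. In the library labelled Pdcd1fl/fl the count is below the share among all genes and is no result about the 8 genes. The median log2 ratios were 0.51 and 1.06, against 0.47 and 0.24 over all genes. Scaling by the median gene moves all genes by 0.50 and 0.51 on the log2 scale in this comparison, which leaves the 8 genes together at 0.03 (-0.28 to 0.33) and 0.36 (0.08 to 0.63). With that scaling 1 and 2 of the 7 measured genes are at least 2-fold higher, where 23.6% and 19.5% of all genes are. Under it 3 and 1 of the 7 change sign and lie below 0, while Mitf stays at 1.83 and 2.48.

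**Figure D2:**
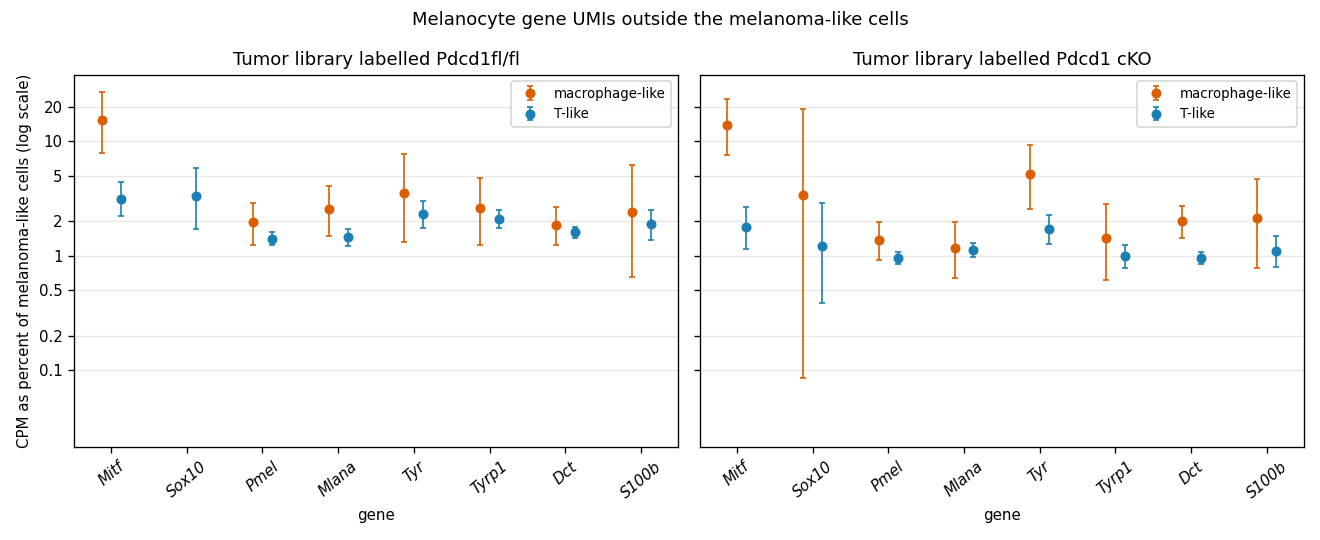
Levels of each gene in T-like and macrophage-like cells as a percentage of the melanoma-like level in the same tumor library, on a log axis, with 95% intervals for counting error. Sox10 had no macrophage-like UMI in the library labelled Pdcd1fl/fl and is not drawn there.

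The makeup of the 8 genes' UMIs was compared between classes and libraries. Pmel made up 29.0% and 32.5% of them in melanoma-like cells, 24.9% (22.3 to 27.7) and 29.8% (26.9 to 32.9) in T-like cells, and 23.8% and 23.4% in macrophage-like cells. Dct made up 35.8% and 31.2% in melanoma-like cells, 34.8% (31.9 to 37.8) and 28.9% (26.0 to 31.9) in T-like cells, and 27.7% and 33.1% in macrophage-like cells. Mitf rose in share from 1.83% and 1.54% in melanoma-like cells to 3.52% (2.48 to 4.84) and 2.65% (1.72 to 3.88) in T-like cells and 11.9% (6.29 to 19.8) and 11.3% (6.31 to 18.2) in macrophage-like cells. Thymus and spleen had another makeup. Tyr gave 57.9% and 39.2% of their few UMIs in the thymus and 23.5% and 26.6% in the spleen, and Mitf 18.4% and 30% in the thymus and 58.8% and 54.7% in the spleen. Pmel and Dct thus led in all classes of the tumor libraries, with T-like shares of Pmel a few points below the melanoma-like ones, while Tyr and Mitf led in the libraries without tumor.

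Spread over cells, the remainder was broad and thin. Among 287 T-like cells of the library labelled Pdcd1fl/fl, 21 had no UMI of the 8 genes, 30 had 1, 57 had 2, 171 had 3 to 9, and 8 had 10 or more. Among 469 of the library labelled Pdcd1 cKO, the numbers were 88, 127, 107, 144 and 3. The variance of the count was 1.88 and 1.82 times its mean, while in melanoma-like cells the mean was 601 and 683 UMIs per cell. No T-like cell reached 100 UMIs, which 136 of 142 and 55 of 58 melanoma-like cells did. The T-like cell with the most had 16 of its 42572 UMIs from the 8 genes under the label Pdcd1fl/fl, and 20 of 6555 under the label Pdcd1 cKO. The latter cell, picked after its values were seen, also had 40 T cell and 9 melanoma marker UMIs. Thymus and spleen cells had at most 3 such UMIs, and 1032 of 1067, 2524 of 2635, 1461 of 1478 and 4865 of 4928 had none.

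**Figure D3:**
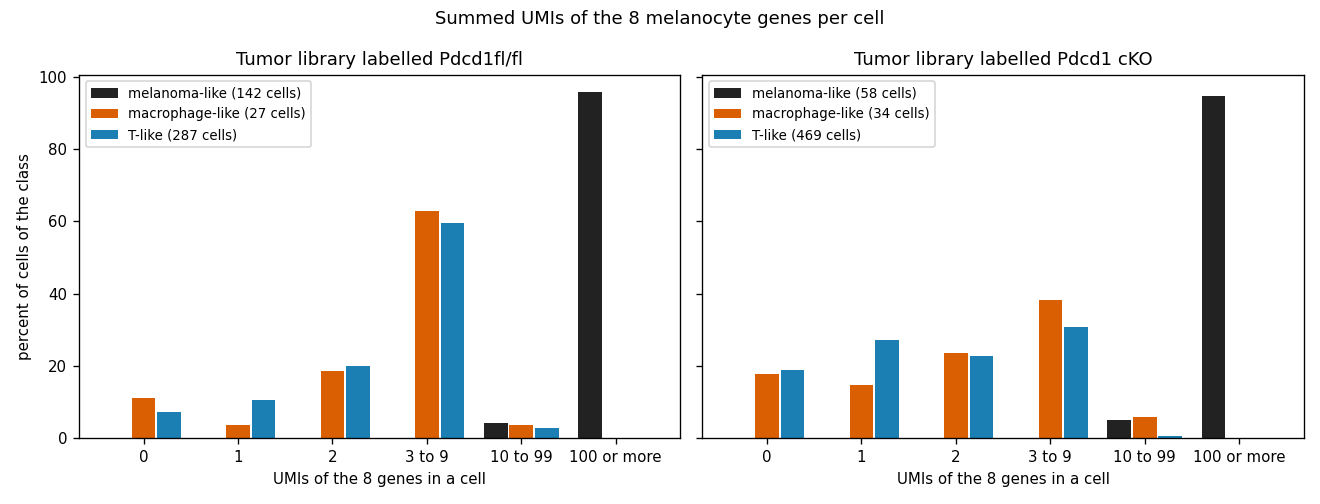
Percentage of cells of each class by their summed UMIs of the 8 melanocyte genes in the tumor libraries. Melanoma-like cells lie at 10 or more UMIs and T-like and macrophage-like cells mostly below 10.

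The share of cells with a UMI depends on depth, so each cell was also thinned to 1000 UMIs, which left out no cell. For Pmel the share in melanoma-like cells was 95.1% and 94.8% after thinning and 100% in each library before. In T-like cells, the background for this measure, it was 8.71% and 4.69% after thinning and 53.3% and 41.6% before, at the median depths of 11027 and 9107 UMIs given above against 31889 and 35962.5 in melanoma-like cells. In macrophage-like cells it was 11.1% and 8.82% after thinning and 55.6% and 38.2% before. For Mitf the thinned share was 21.1% and 27.6% in melanoma-like cells against 0.697% and 0.426% in T-like cells, and 93.0% and 91.4% against 11.8% and 5.12% without thinning. For Sox10 it was 9.15% and 17.2% in melanoma-like cells and 0 in T-like cells, with 88.0% and 86.2% against 3.83% and 0.853% without thinning. Any of the 8 genes was seen after thinning in 27.9% and 18.1% of T-like cells, and in 92.7% and 81.2% of them without thinning.

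Within the T-like cells the summed level was found in every cluster. In the library labelled Pdcd1fl/fl it ran from 201 CPM (128 to 302) in cluster 7 to 371 CPM (293 to 462) in cluster 6, and in the library labelled Pdcd1 cKO from 155 CPM (115 to 204) in cluster 4 to 284 CPM (166 to 455) in cluster 7. In cluster 1 it was 256 CPM (237 to 277) and 185 CPM (161 to 212), in cluster 4 287 CPM (248 to 331) and 155 CPM, and in cluster 0 279.6 CPM (192 to 393) and 169.9 CPM (155 to 186). Cluster 3 held 253 CPM (179.7 to 345) and 204 CPM (176 to 235). So 4 of the 5 T-like clusters that both libraries share had the lower level in the library labelled Pdcd1 cKO, with intervals apart in clusters 0, 1 and 4, and cluster 7 with 7 and 8 cells had the higher. Without cluster 7, an alternative chosen after seeing the data, T-like cells stood at 269 and 178 CPM. The T-like clusters were led by Trgc2, Gzma, 2900026A02Rik, Cd7 and Ipcef1 (0), Nhsl2, Gfm2, Slc2a12, Gzmc and Malt1 (1), Gzme, Sdk1, Ccl5, Cd7 and Wdr95 (3), 2310001H17Rik, Dapl1, Ccr7, Xcl1 and Cd200 (4), Emb, Rgs10, Klk8, Ccr7 and Rps27 (6), and Gm37273, Ano1, Tnfrsf4, Ass1 and Glrx (7). Split at the median depth, the shallower T-like cells held 295 CPM (265 to 327) and 207 CPM (186 to 229.8), and the deeper ones 254 CPM (235 to 274) and 166 CPM (153 to 180.2). The intervals of shallow and deep cells are apart in the library labelled Pdcd1 cKO only.

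Between the labels, the log2 ratio in melanoma-like cells, the library labelled Pdcd1 cKO over the library labelled Pdcd1fl/fl, was 0.10 (0.08 to 0.12) for the sum of the 8 genes. Mlana at 0.31 (0.27 to 0.35), Pmel at 0.26 (0.23 to 0.29) and S100b at 0.22 (0.14 to 0.31) were higher, and Tyrp1 at 0.02 (-0.04 to 0.07) spanned 0. Sox10 at -0.26 (-0.52 to -0.01), Tyr at -0.19 (-0.28 to -0.09), Mitf at -0.15 (-0.28 to -0.01) and Dct at -0.10 (-0.13 to -0.07) were lower. None of the 8 passed 2-fold, where 3.6% of 11741 genes did upward and 7.77% downward. A count of 0 of 8 is near these shares and is no result about the 8 genes, and 7 of the 8 intervals lie apart from 0. These intervals leave out the spread between cells. In the library labelled Pdcd1 cKO, 1 of 58 melanoma-like cells held 3955 of the 39610 UMIs of the 8 genes. It also held 1569 of the 12868 Pmel UMIs. Without the 5 cells with most UMIs of the 8 genes in each library, the summed levels were 15551 and 15766 CPM. The median summed level of a cell was 15807 and 15078 CPM, lower in the library labelled Pdcd1 cKO. Scaling by the median of ratios moves all 8 ratios up alike, to -0.18 for Sox10, -0.061 for Mitf, -0.011 for Dct and 0.10 for Tyrp1. Moved by the same amount, the intervals of Sox10, Mitf and Dct span 0 and that of Tyrp1 does not. The median gene lay at -0.14 over those 11741. In T-like cells all 8 log2 ratios were below 0, with -0.57 (-0.70 to -0.44) for the sum. Tyrp1 had -1.05 (-1.49 to -0.63), Dct -0.84 (-1.07 to -0.61), Mitf -0.98 (-1.78 to -0.21), Tyr -0.62 (-1.19 to -0.05), Pmel -0.31 (-0.56 to -0.06) and Sox10 -1.72 (-3.58 to -0.11). The intervals of Mlana at -0.06 (-0.38 to 0.26) and S100b at -0.55 (-1.19 to 0.08) span 0. At least 2-fold lower was 1 of 7 measured genes (Tyrp1), where 4.19% of 10719 genes were, and the T-like cells come from different clusters in the libraries. Scaling by the median gene makes it 2 of 7, with Mitf at -1.01, where 4.54% of all genes are. The melanoma naming markers, with 9 measured, had a median log2 ratio of 0.0045 between the labels in T-like cells. Of these, 1 was at least 2-fold higher and 0 were lower. In macrophage-like cells the sum had -0.23 (-0.63 to 0.16), and the intervals of all genes with a ratio span 0.

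Melanoma-like cells held the genes together. All 8 were seen in 116 of 142 and 43 of 58 cells, and the summed level of a cell had a median of 15807 and 15078 CPM and a highest value of 35166 and 38098 CPM. The coefficient of variation over cells lay between 0.447 and 0.515 for Pmel, Mlana, Tyrp1, Dct and Tyr in the library labelled Pdcd1fl/fl and between 0.464 and 0.573 in the other. For Mitf it was 0.994 and 1.14 and for Sox10 0.910 and 0.948, with fewer UMIs per cell. For S100b it was 1.01 and 0.956, with a mean of 23.5 and 29.1 UMIs per cell beside 23.9 and 22.2 for Tyr. Across cells of the class the CPM of Tyrp1 and Dct had a Spearman correlation of 0.68 and 0.69, Tyrp1 and Tyr 0.70 and 0.53, and Dct and Tyr 0.68 and 0.61, over 142 and 58 cells of 1 library each. Pmel with Dct gave 0.58 and 0.66, while Mlana with Dct gave -0.06 and 0.08, and Dct with S100b 0.55 and 0.50. Dct with Mitf gave 0.13 and 0.13, and Dct with Sox10 0.14 and 0.14. Dct thus varied together with the other enzymes, Pmel and S100b, little with Mitf and Sox10, and not with Mlana. Mitf gave 0.30 and 0.25 with Tyr, 0.26 and 0.21 with Tyrp1, and 0.11 and -0.04 with Pmel. Median counts per cell were 9 and 7.5 UMIs for Mitf and 3 and 2 for Sox10. How far such low counts lower their correlations was not tested. The median over 28 pairs was 0.19 and 0.17.

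A pair of melanoma-like cells stood apart and were picked after their values were seen. In the library labelled Pdcd1fl/fl, 1 cell held 10 UMIs of the 8 genes among 17066 UMIs, or 586 CPM, the lowest of the class. It held 1492 of the 1545 UMIs that the 6 fibroblast markers had in the class and 3 melanoma marker UMIs. Its level is near that of T-like and macrophage-like cells, and the next lowest cell of the class stood at 4379 CPM. In the library labelled Pdcd1 cKO, 1 cell of 57555 UMIs held 944 UMIs of the 8 genes together with 291 of the 415 macrophage marker UMIs of the class. Without these cells, an alternative chosen after seeing the data, the melanoma-like level is 16208 and 17353 CPM.

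The promoters of the correlated enzymes are shown because Tyrp1, Tyr and Dct move together across melanoma-like cells. RefSeq windows on GRCm38.p6 were held for 5 of the 8 genes, with 3 for Mitf; none was held for Pmel, Mlana and Sox10. The motif searched on both strands was TCATGTG, reverse complement CACATGA, the core of the M box, and capitals mark it. It occurs in 1239 of 32851 windows of 300 bases, or 3.77%, and in the windows of Tyrp1, Tyr and Dct, with 2 matches in Dct. The windows of Mitf and S100b do not hold these letters. The windows are chr4:80833963-80834262 on the plus strand for Tyrp1, chr7:87493463-87493762 on the minus strand for Tyr and chr14:118052197-118052496 on the minus strand for Dct. Each is printed in the direction of the gene, and a match describes letters only.
Tyrp1: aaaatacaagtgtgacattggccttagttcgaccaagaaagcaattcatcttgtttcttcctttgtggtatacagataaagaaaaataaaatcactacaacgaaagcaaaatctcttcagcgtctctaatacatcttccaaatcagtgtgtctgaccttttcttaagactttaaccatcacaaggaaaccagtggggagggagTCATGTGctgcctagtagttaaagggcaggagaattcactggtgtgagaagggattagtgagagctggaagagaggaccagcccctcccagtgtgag
Tyr: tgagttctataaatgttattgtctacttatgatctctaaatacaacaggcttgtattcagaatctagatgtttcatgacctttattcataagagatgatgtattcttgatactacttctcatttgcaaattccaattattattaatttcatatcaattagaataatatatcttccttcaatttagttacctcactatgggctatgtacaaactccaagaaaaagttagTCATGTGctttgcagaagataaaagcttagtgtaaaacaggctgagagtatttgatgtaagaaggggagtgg
Dct: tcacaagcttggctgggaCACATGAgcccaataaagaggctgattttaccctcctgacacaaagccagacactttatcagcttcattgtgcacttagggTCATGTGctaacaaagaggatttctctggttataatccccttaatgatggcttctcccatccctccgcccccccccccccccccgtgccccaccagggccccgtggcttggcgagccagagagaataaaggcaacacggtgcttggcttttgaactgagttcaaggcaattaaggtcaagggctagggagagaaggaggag

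Other genes of the pigment cell were read from 3 lists that leave out the 8 genes and the naming markers. Between melanoma-like and T-like cells all 8 melanocyte genes were at least 2-fold higher in each library, where 45.9% of 12123 and 33.8% of 11299 genes were, with median log2 ratios of 5.64 and 6.48 against 0.86 and 0.49 over all genes. Of the genes for melanosome structure and transport, 12 of 17 and 12 of 15 measured were at least 2-fold higher, with medians of 2.23 and 1.46. Cd63, a membrane protein that sorts Pmel, had 5.85 and 6.40, and Gpnmb, a relative of Pmel, 5.52 and 6.12. Lowest were Vps33a at 0.41 and Ap3b1 at 0.53 in the library labelled Pdcd1fl/fl, and Ap3b1 at -0.25 and Hps1 at -0.17 in the other, parts of general lysosome transport machinery. Of the melanin enzymes, pumps and channels, 7 of 8 were higher in each library, with medians of 2.00 and 1.74. Highest were Slc24a4 at 4.39 and Clcn7 at 3.94 in the library labelled Pdcd1fl/fl, and Mfsd12 at 3.30 and Clcn7 at 2.82 in the other. Lowest were Slc7a11, a cystine transporter, at 0.62 and -0.21, with Mif at 1.40 in the library labelled Pdcd1fl/fl and Ddt at 1.11 in the other. Of the lineage regulators and receptors, 7 of 9 and 6 of 10 were higher, with medians of 1.67 and 1.98. Mc1r, the melanocortin receptor, had 6.69 and 6.05, followed by Tfap2a at 4.76 in the library labelled Pdcd1fl/fl and Met at 5.63 in the other. Lowest were Bhlhe40 at -0.59 and Sox5 at 0.26 in the library labelled Pdcd1fl/fl, and Ednrb at -2.50 and Sox5 at -0.10 in the other. Scaling by the median gene moves all genes by 0.55 and 0.59 on the log2 scale here, which puts Vps33a, Ap3b1 and Sox5 below 0 in the library labelled Pdcd1fl/fl. Scaling by the median of ratios leaves 11 of 17 and 7 of 15 melanosome genes, 6 of 8 and 4 of 8 melanin genes, and 6 of 9 and 6 of 10 lineage genes at least 2-fold higher. The share of all genes also falls, to 30.6% and 20.9% with the median gene. All 8 melanocyte genes stay past 2-fold with the median gene, and the T-like level becomes 2.42% and 1.56% of the melanoma-like level.

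The genes most like the 8 across all filtered tumor cells were ranked by the mean over the libraries of the Pearson correlation with their summed level, among 5275 genes in 456 and 561 cells. Outside the 8 genes, Syngr1 had the highest mean at 0.889, followed by Rab38 at 0.884, Cd63 and Slc45a2 at 0.881, Ptgds at 0.879, Ldhb at 0.876, Gpnmb at 0.869, Slc24a5 at 0.868, Tspan10 at 0.863 and Hsd17b4 at 0.859. Of these, Syngr1, Rab38, Slc45a2, Ptgds and Slc24a5 are markers that named the class. Cd63 and Gpnmb were also seen in macrophage-like cells, at 490.4 and 507 CPM and at 318 and 353 CPM. The cells of each correlation share a library and differ in depth, with the deepest cells in the melanoma-like class, and the correlations are given as a description. Of the 8 genes, Dct at 0.956 and Pmel at 0.947 lay closest to the sum they are part of, and Mitf at 0.766 and Sox10 at 0.725 farthest.

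On GRCm39, the build of the count files, Pmel lies at chr10:128540064-128556107 and S100b at chr10:76085090-76097159, on the plus strand of the same chromosome. The other 6 genes lie on 6 other chromosomes: Mitf at chr6:97783950-97998323, Tyrp1 at chr4:80752360-80769956 and Mlana at chr19:29674900-29686034 on the plus strand, and Tyr at chr7:87073979-87142720, Dct at chr14:118250202-118289656 and Sox10 at chr15:79039108-79049469 on the minus strand. Pmel overlaps Cdk2 by 900 bases and Dgka by 1365 bases on the opposite strand, and S100b overlaps Dip2a by 1897 bases. Dct overlaps a noncoding gene, 4930435M08Rik, and Mitf overlaps Gm15531 and Gm66437. Whether strand was used in the counting is not stated, so UMIs of these neighbours cannot be told apart from those of the members where they overlap.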

How the data were processed

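The authors counted UMIs per gene and cell with the Fluent PIPseq pipeline on GRCm39, and the deposited count matrices hold raw UMI counts. The cell filter follows the study. Tumor cells were merged and clustered in R 4.3.3 with Seurat 5.3.0 (SCTransform, 20 principal components, Louvain, resolution 0.8) without the 8 genes, and clusters were named by at least 3 markers past 2-fold. Levels, exact Poisson, conditional binomial and Clopper-Pearson 95% intervals, and thinning (seed 1) used numpy 2.4.6, scipy 1.17.1 and pandas 2.3.3, with figures from matplotlib 3.10.9. The floor for 0 counts was 3 counts per library and class. Gene lists needed 20 UMIs over both sides and added 0.5 counts. Genes named were the 8 genes, the 2 highest and 2 lowest of each pigment list, the 10 most correlated genes (from 100 UMIs in each tumor library), the 5 leading genes of each cluster, markers used as checks, and Pdcd1. The members and lists were chosen with earlier results of these data known. Folds, intervals and correlations were also run on simulated counts. These were drawn with the Poisson error that the intervals assume, so they cannot test the intervals against the spread between cells. No test was made, since each group has 1 library. Cells outside the filter were left out.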

Additional observations from a re-analysis of the deposited data

Results flagged for a closer look

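In the library labelled Pdcd1fl/fl, 1 tumor barcode lay outside the cell filter, with 22.8% mitochondrial UMIs. It held 416 UMIs of the 8 genes among 20912 UMIs, or 19893 CPM, a signal in data that the comparisons do not use.

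Some log2 ratios of the library labelled Pdcd1 cKO over the library labelled Pdcd1fl/fl had opposite signs in melanoma-like and T-like cells of the tumor. Pmel had 0.26 in melanoma-like and -0.31 in T-like cells. Mlana had 0.31 and -0.062, Tyrp1 0.015 and -1.05, and S100b 0.22 and -0.55 in the same order. The sum of the 8 genes had 0.10 and -0.57. The difference between the classes was not tested, and the intervals of Tyrp1 in melanoma-like cells and of Mlana and S100b in T-like cells span 0. The median summed level of a melanoma-like cell was 15807 CPM under the label Pdcd1fl/fl and 15078 CPM under the label Pdcd1 cKO. It thus ran opposite to the pooled ratio of the sum in that class.

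Thymus and spleen also had opposite signs for some genes. Tyr had -0.49 in the thymus and 0.081 in the spleen, Mitf 0.78 and -0.20, and the sum of the 8 genes 0.076 and -0.094. The difference between the tissues was not tested, and each of these intervals spans 0.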

How the results depend on the processing

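For the ratios between the labels, only rescalings that shift all genes alike were tried, and these turned no sign. Alternatives that change the set of cells were not run on these ratios. The median summed level of a melanoma-like cell, 15807 and 15078 CPM, ran opposite to the pooled ratio of the sum. Scaling by the median gene turned 3 and 1 of the ratios of the 8 genes between macrophage-like and T-like cells, and those of Vps33a, Ap3b1 and Sox5 between melanoma-like and T-like cells labelled Pdcd1fl/fl, through the shift of all genes. Clustering at resolution 1.2 or with the 8 genes, classes from each cell's own markers and a stricter cell filter each left 8 of 8 shares and levels of the classes within their intervals. Leaving out barcodes shared between libraries removed no tumor cell, so it says nothing about stability.

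Without mitochondrial, ribosomal and Malat1 UMIs the summed level was 21779 and 22619 CPM in melanoma-like, 469 and 289 CPM in T-like, and 505 and 402 CPM in macrophage-like cells, because the total is smaller by construction. Without the 5 cells with most UMIs of the 8 genes it was 15551 and 15766 CPM in melanoma-like and 295 and 252 CPM in macrophage-like cells, since the highest cells are left out. In macrophage-like cells with no UMI of the melanoma markers, 5 and 16 in number, it was 264 and 247 CPM; the cause was not tested. Within the library labelled Pdcd1 cKO, scaling by the median of ratios left 7 melanosome genes in place of 12, and 4 melanin genes in place of 7, at least 2-fold higher in melanoma-like than in T-like cells, while the share of all genes fell from 33.8% to 20.9% with the median gene. It gave 0.19 as the log2 ratio of the sum between the labels in melanoma-like cells, through the shift of all genes. It also moved 5 gene ratios, those of Pmel, Mlana, Tyrp1, Dct and S100b in melanoma-like cells, and kept 11 within their intervals. Dct went to -0.011 and Tyrp1 to 0.10. With this shift the melanoma-like intervals of Dct, Mitf and Sox10 between the labels span 0, and that of Tyrp1 does not. Without cluster 1, left out after seeing the data because Ighm was among its 10 leading genes against all other cells, T-like cells labelled Pdcd1fl/fl stood at 289 CPM; the cause was not tested. Leaving out the T-like cluster of a lone library, the T-like cluster with more Cd4 than Cd8a, or the melanoma-like cells with fibroblast or macrophage markers, was also chosen after seeing the data and moved no result past its interval. The 6 Pmel shares of cells moved with thinning to 3000 UMIs and without thinning, as deeper cells show more genes.

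No paired analysis was possible because each tissue and label has 1 library and the labels do not link libraries by mouse. The tumor libraries pool animals, and intervals cover counting error alone, so differences between mice, tumors and preparations cannot be told apart from those between labels. Macrophage-like cells number 27 and 34, which leaves wide intervals for each gene. The exons that UMIs come from are not known, and RNA in T-like cells was measured per barcode, so its place inside or outside the cell was not tested. Protein was not analysed here.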
